A study of Drosophila melanogaster with 3 samples.

Results

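The genes described here encode 10 insulator and promoter factors of Drosophila melanogaster, of 13945 protein-coding genes in the annotation. They were taken by name: Chro, Cp190, mod(mdg4), BEAF-32, CTCF, su(Hw), pita, Trl, M1BP and Dref. For each gene, every listed region was read whose summit lay inside the gene body or within 5 kb of it. The regions were recovered by ChIP-seq, the sequencing of DNA that is immunoprecipitated with a chromatin protein, from whole prepupae, the stage at which the larva begins metamorphosis, with males and females pooled. The animals were of the transgenic strain CG8319-GFP, in which CG8319, a gene whose product RefSeq lists as uncharacterized, carries green fluorescent protein at its C terminus, and an anti-GFP antibody recovered the fusion protein. All samples form 1 group of 3 biological replicates from that single line, and their age is given as unknown. No untagged group was analysed here. The signal of a region is the authors' peak caller value, which is comparable within a list only, so regions are also given by their rank, where 1 is the strongest. The depth of the libraries is unknown, so no counting error can be attached to a region. The sources used here do not give which promoter drives the fusion gene. Positions are in the build dm6.

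Insulators are DNA elements that separate neighbouring regulatory domains and help to fold chromosomes. In flies they are bound by sequence-specific zinc finger proteins such as su(Hw), CTCF, Pita and the BED finger protein BEAF-32. These recruit the cofactors Cp190 and Mod(mdg4), and Chromator, the product of Chro, is found with them at domain borders. The promoter factors bind close to start sites. GAGA factor, the product of Trl, binds GA repeats and keeps promoters accessible, DREF binds the DNA replication-related element (DRE) at genes of growth and proliferation, and M1BP binds the Motif 1 element of housekeeping promoters.

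The tagged protein was recovered within 500 bp of a start site of 7 of the 10 genes, where 14.0% of all protein-coding genes met the same rule. Chro had the strongest of these peaks, at rank 7 of the 4410 peaks of the thresholded list, and Cp190, Trl, M1BP, Dref, BEAF-32 and pita followed in that order. At Chro, Cp190, M1BP and Dref a protein-coding neighbour on the opposite strand also started within 500 bp of the summit. No peak of that list lay at a start of mod(mdg4), CTCF or su(Hw). The strongest peak in the gene body of Trl lay away from its starts, at rank 42, and mod(mdg4) carried one at rank 150 deep inside the gene. The thresholded list is the authors' optimal list, derived by the irreproducible discovery rate (IDR), a measure of how well peaks repeat between replicates. These 4410 peaks are exactly the 4410 strongest of the pooled list, so a single peak of it need not be strong in every replicate. Of the list, 66.1% overlapped the 4410 strongest regions of all 3 replicates.

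The summit sequences of 10 of the 11 peaks that are among the 2205 strongest are shown to give the letters the tagged protein was recovered with, and that of BEAF-32 is not printed. Each runs 5′ to 3′ on the strand of the gene and spans the summit and 50 bases to either side. Capitals mark 5 words of 6 bases, on either strand, whose share differed most between summits and flanks over the 4394 optimal peaks outside these gene windows. The word TTAAAA was at 32.7% of those summits and at 12.6% of the flanks. For AAATAT the shares were 31.9% at summits and 13.4% in flanks. The word AAAATA had 35.8% and 18.0%, while ATTTTA had 29.0% and 11.3%, and 28.5% and 11.2% were the shares of ATTTAA, each time at summits and in flanks. The words overlap one another, and the CTCF summit at rank 183 and the Dref summit hold none.
Chro, rank 7 (chr3L:22878847-22878947, minus strand): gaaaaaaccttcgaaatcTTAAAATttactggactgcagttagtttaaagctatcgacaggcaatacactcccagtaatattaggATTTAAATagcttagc
Trl, rank 42 (chr3L:14759469-14759569, minus strand): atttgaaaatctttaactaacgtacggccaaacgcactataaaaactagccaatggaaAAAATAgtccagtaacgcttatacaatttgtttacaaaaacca
mod(mdg4), rank 150 (chr3R:21365411-21365511, minus strand): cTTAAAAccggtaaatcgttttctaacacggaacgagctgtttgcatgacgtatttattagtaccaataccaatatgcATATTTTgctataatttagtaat
CTCF, rank 183 (chr3L:7360411-7360511, minus strand): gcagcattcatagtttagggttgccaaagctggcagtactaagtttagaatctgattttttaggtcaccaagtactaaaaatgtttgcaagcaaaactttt
Cp190, rank 210 (chr3R:15275286-15275386, minus strand): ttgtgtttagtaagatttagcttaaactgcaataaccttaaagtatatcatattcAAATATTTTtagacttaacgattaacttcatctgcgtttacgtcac
Trl, rank 603 (chr3L:14757130-14757230, minus strand): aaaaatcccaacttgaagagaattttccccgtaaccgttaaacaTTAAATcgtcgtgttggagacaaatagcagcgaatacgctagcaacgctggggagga
Trl, rank 677 (chr3L:14756167-14756267, minus strand): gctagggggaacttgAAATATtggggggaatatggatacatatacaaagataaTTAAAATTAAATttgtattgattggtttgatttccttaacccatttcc
mod(mdg4), rank 703 (chr3R:21378722-21378822, minus strand): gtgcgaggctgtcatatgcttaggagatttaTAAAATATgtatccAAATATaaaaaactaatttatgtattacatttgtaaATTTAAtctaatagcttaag
M1BP, rank 935 (chr3R:8731939-8732039, minus strand): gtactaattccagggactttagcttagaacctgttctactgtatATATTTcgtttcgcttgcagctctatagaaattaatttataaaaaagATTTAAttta
Dref, rank 1558 (chr2L:9967195-9967295, minus strand): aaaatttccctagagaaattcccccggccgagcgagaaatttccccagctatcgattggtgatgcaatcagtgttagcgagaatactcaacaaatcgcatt

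The 7 called genes made up 70.0% of the 10, where 14.0% of all protein-coding genes met the same rule, which asks that the summit of an optimal peak be 500 bp or less from a start. With the 2205 strongest optimal peaks 6 genes were called, all but pita of the 7, where 8.28% of protein-coding genes were. With the optimal peaks that overlapped the 4410 strongest regions of every replicate by 1 bp or more the same 6 were called, where 9.63% of protein-coding genes were. BEAF-32 met the former rule only through its peak at rank 2158 and the latter only through its peak at rank 3228. Taken in each replicate's own 4410 strongest regions, 6, 7 and 7 of the genes were called in replicates 1, 2 and 3, where 15.1%, 14.4% and 14.2% of protein-coding genes were. The gene missing in replicate 1 was pita. At a limit of 200 bp 6 genes were called (9.00% of protein-coding genes), and at 1000 bp 7 (17.0%).

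In the gene body or within 5 kb, 9 of the 10 genes had an optimal summit, where 40.8% of protein-coding genes did. The count was 8 within 2 kb (28.5%) and 9 within 10 kb (55.6%). The windows held 16 optimal summits over 169941 bp, or 0.942 per 10 kb, and the merged windows of all protein-coding genes held 0.365 per 10 kb. Of the 16, 8 lay within 500 bp of a start of the named gene itself. Within 500 bp of a start of any gene lay 13 (81.2%), as did 38.8% of all optimal summits. That last share is over all 4410 summits, of which 4066 lay in the windows of protein-coding genes, whereas the 16 were all taken from such windows. These shares describe genes that were chosen with results known, and no test was made of them.

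**Figure D1:**
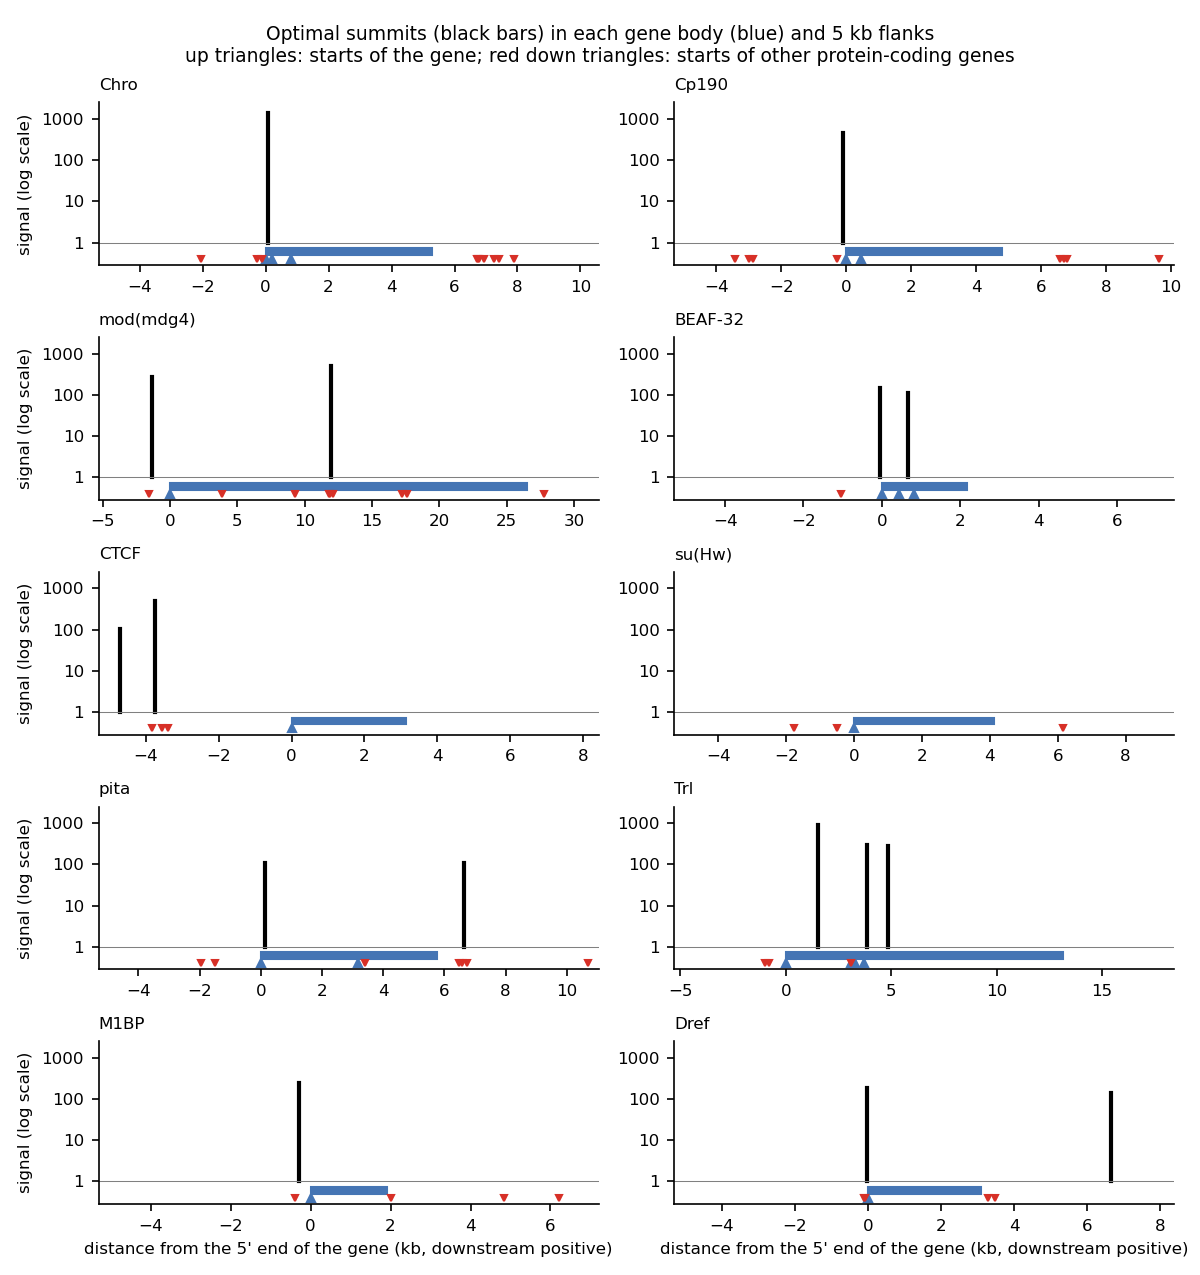
Optimal summits in the windows of the 10 genes. The x axis is the distance from the 5′ end of each gene in kb, with the direction of transcription to the right, and the height of a bar is the pooled signal on a log axis. Blue marks the gene body and its starts, and red triangles mark starts of other protein-coding genes. Bars stand at the start of Chro, Cp190, BEAF-32, pita, M1BP and Dref, the tallest bar of Trl stands inside the gene, and su(Hw) has none.

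**Figure D2:**
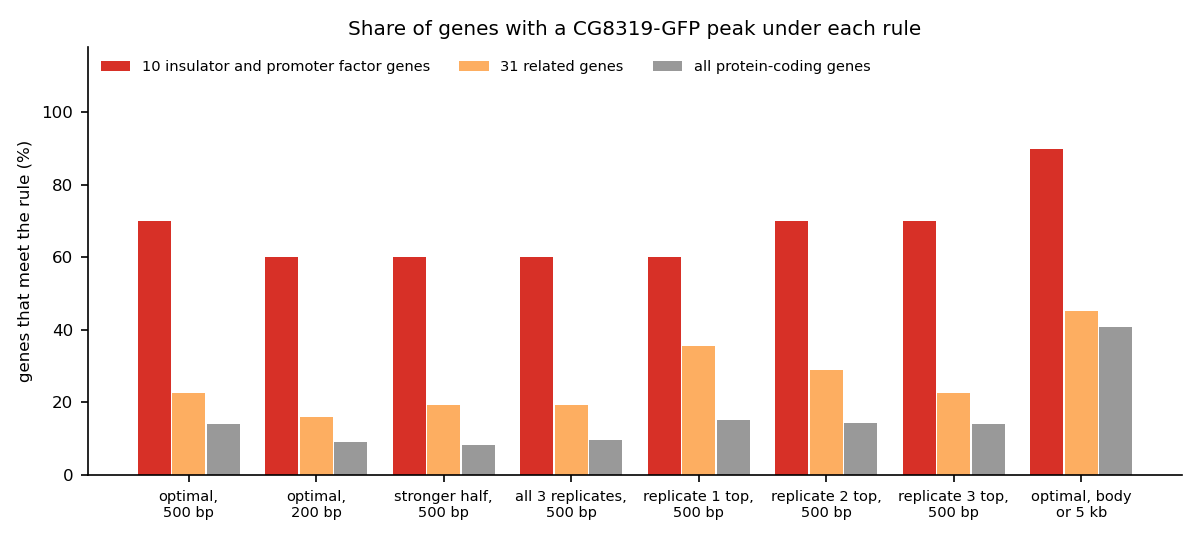
Share of genes that met each rule, for the 10 insulator and promoter factor genes, 31 related genes and all protein-coding genes. Bars start at 0, and the 10 genes stand at 60.0% to 90.0% under the rules shown.

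Among the genes for insulator cofactors, Chro (FBgn0044324, chr3L:22873702-22878984) had the highest-ranked peak. Its peak (chr3L:22878710-22879085) had a signal of 1422 in the optimal list and of 324.3 in replicate 1, 680.8 in replicate 2 and 421.7 in replicate 3. The rank was 7 in the optimal list and 7 in every replicate, and the replicate summits lay within 7 bp of the optimal one. The summit lay in the 5′ UTR, 87 bp downstream of the outermost start. A second gene starts close by on the opposite strand, 105 bp from that start of Chro. It is Ssl1, which encodes a subunit of the general transcription factor TFIIH, and its nearest start was 192 bp from the summit. The peak reaches over nearly the whole interval between both genes and cannot be given to either.

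Cp190 (FBgn0000283, chr3R:15270432-15275241), the gene of a BTB and zinc finger cofactor shared by most fly insulators, had a peak at chr3R:15275228-15275410. The signal was 462 in the optimal list and 95.3, 233.2 and 130.8 in replicates 1, 2 and 3. Its rank was 210, and the replicate ranks of 320, 194 and 223 averaged 246 ± 66.0 (SD, n = 3). All 3 replicates thus placed it among their 320 strongest regions. The summit was in intergenic sequence, 95 bp upstream of the outer start of Cp190 and 186 bp from that of CG4338, which starts 281 bp away on the opposite strand.

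The gene mod(mdg4) (FBgn0002781, chr3R:21350846-21377401) encodes a family of BTB proteins through trans-splicing, in which a shared 5′ part is joined to alternative 3′ parts made from separate RNAs of either strand. Its own start had no optimal summit, and the nearest was 1371 bp upstream. Inside the gene, 11940 bp from its start, a peak (chr3R:21365265-21365605) had a signal of 516 in the optimal list and of 111.8, 242.2 and 156.2 in the replicates. Its rank was 150, with a replicate mean of 166 ± 27.2 (SD, n = 3), so the replicates placed it much alike. The annotation puts the summit in an intron of mod(mdg4) and in the 5′ UTR of pre-mod(mdg4)-E, a separate 3′ unit whose start is 27 bp away. In all, 10 of these 3′ units start within 500 bp of the summit, 3 on the strand of mod(mdg4) and 7 on the opposite strand, so the summit lies beside starts of both directions. The other peak of the window (chr3R:21378695-21378837, signal 277, rank 703, replicate ranks 1164, 653 and 803) was nearer to tin, the homeobox gene of the heart, at 205 bp.

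Of the genes for sequence-specific insulator proteins, BEAF-32 and pita had peaks at their starts that ranked below those of the other 5 called genes, and CTCF and su(Hw) had none. BEAF-32 (FBgn0015602, chr2R:14770469-14772630) had 2 optimal peaks. The first (chr2R:14770222-14770631) lay 42 bp upstream of the outer start, in an exon of the antisense RNA gene asRNA:CR42254, with a signal of 147 in the optimal list and of 20.8, 71.5 and 50.8 in the replicates. Its optimal rank was 2158, and the replicate ranks were 5466, 2168 and 1616, so replicate 1 did not hold it among its 4410 strongest. The second (chr2R:14770937-14771346, signal 110, rank 3228) lay in the 5′ UTR, 159 bp upstream of an inner start. Its replicate ranks were 2749, 3868 and 4204, but the region of replicate 1 had its summit 165 bp away, so the replicates agreed less on the place.

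The gene pita (FBgn0034878, chr2R:23548967-23554712) encodes a zinc finger protein of the ZAD class that binds insulators and boundary elements. Its peak (chr2R:23554387-23554796) lay in the 5′ UTR, 120 bp downstream of the start. The signal was 109 in the optimal list and 22.7, 53.3 and 35.6 in the replicates, and the ranks were 3260 in the optimal list and 4828, 3326 and 2767 in the replicates. It was thus the weakest start-site peak of the 7 genes, and replicate 1 ranked it below its 4410 strongest regions. A second optimal peak in the window (chr2R:23547883-23548292, signal 105, rank 3437) lay 879 bp beyond the other end of the gene, in the 5′ UTR of wmd, 63 bp from its start.

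CTCF (FBgn0035769, chr3L:7353578-7356713), the fly relative of the vertebrate insulator protein, had no optimal summit closer than 3748 bp to its start. That summit (chr3L:7360331-7360599) lay in intergenic sequence 100 bp from the start of Sec63, a gene of protein import into the endoplasmic reticulum, and 198 bp from that of pst. Its signal was 482 in the optimal list and 108.6, 256.7 and 119.7 in the replicates, and its rank 183, with replicate ranks of 218, 146 and 269. The weaker peak next to it (chr3L:7361214-7361623, signal 103, rank 3542) lay in an intron of Sec63. Neither is a peak at CTCF itself, and at 4706 bp the weaker one is the optimal summit nearest to the edge of the 5 kb flank from inside. The first outside lay 5635 bp from mod(mdg4), with a signal of 104.

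su(Hw) (FBgn0003567, chr3R:14304455-14308589) encodes the zinc finger protein of the gypsy insulator, and it was the 1 gene of the 10 with no optimal summit in its window. The nearest optimal summit was 12924 bp from the gene, and no region of the pooled list, at any of its 30000 ranks, lay within 5 kb. Of all protein-coding genes 18.7% had no pooled region there. The replicates listed 3, 2 and 1 regions in that window, the strongest at rank 7952, 9546 and 26360. Windows without a region in the pooled list and in all 3 replicate lists were rarer, at 3.17% of protein-coding genes, and su(Hw) was not among them.

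The genes of the promoter factors Trl, M1BP and Dref all had an optimal summit at a start. Trl (FBgn0013263, chr3L:14747929-14761049) had 3 optimal peaks, more than any other of the 10. The strongest (chr3L:14759328-14759695) lay in an intron, 1530 bp downstream of the outermost start and that far from any start, with a signal of 906 in the optimal list and of 196.8, 427.0 and 275.5 in the replicates. Its rank was 42, with replicate ranks of 46, 42 and 34 and a mean of 40.7 ± 6.11 (SD, n = 3). The replicates placed it among their 46 strongest regions, and their summits lay within 25 bp of the optimal one.

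The start-site peak of Trl (chr3L:14757132-14757268) lay in the 5′ UTR, 156 bp downstream of the innermost start. Its signal was 301 in the optimal list and 78.5, 130.5 and 82.3 in the replicates, with ranks of 603, and of 520, 753 and 669. The third (chr3L:14756122-14756300, signal 282, rank 677) lay in an intron 1119 bp downstream of the same start, with replicate ranks of 940, 820 and 473. All 3 peaks were thus found in the 4410 strongest regions of every replicate. The outermost start of Trl had no optimal summit within 500 bp, so the gene is called only through an inner start. CG42507 overlaps the inner part of Trl on the same strand and shares the 2 inner peaks with it.

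M1BP (FBgn0037621, chr3R:8729790-8731698), whose product is like pita's a ZAD zinc finger protein, had a peak at chr3R:8731939-8732106. The signal was 239 in the optimal list and 56.6, 94.2 and 84.1 in the replicates, and the ranks were 935, and 1022, 1376 and 635. Its summit was in intergenic sequence, nearer to the opposite gene CG8202, at 102 bp, than to M1BP, at 291 bp. The starts of the pair are 393 bp apart, so here too the peak lies between divergent genes.

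Dref (FBgn0015664, chr2L:9964147-9967229) had an optimal peak (chr2L:9967040-9967449) with its summit 16 bp upstream of the start and 68 bp from that of RpL13, a ribosomal protein gene that starts 84 bp away on the opposite strand. The signal was 181 in the optimal list and 68.6, 60.9 and 60.4 in the replicates. Its optimal rank was 1558, and the replicate ranks of 686, 2749 and 1210 averaged 1548 ± 1072 (SD, n = 3), the widest spread among start-site peaks that every replicate held. The other peak of the window (chr2L:9960373-9960782, signal 140, rank 2319) lay 3569 bp beyond the gene in the 3′ UTR of CG5850. Replicates 1 and 2 ranked it 1606 and 1755, and replicate 3 ranked it 21853, so that peak was not held by replicate 3.

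**Figure D3:**
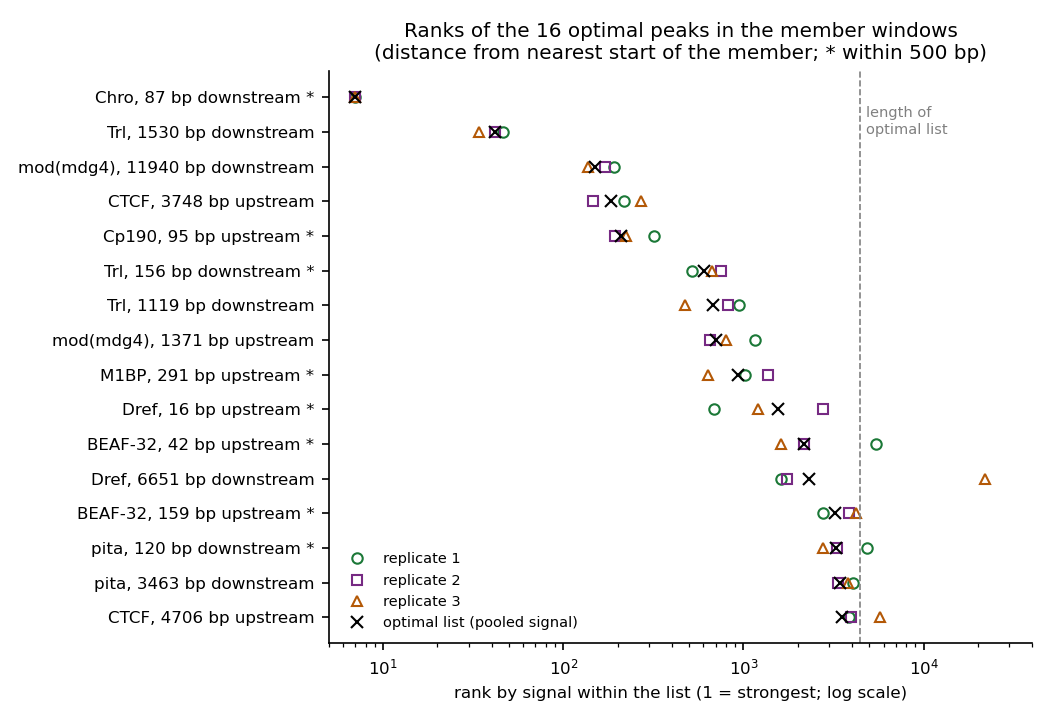
Rank of each of the 16 optimal peaks within the optimal list and within each replicate list, on a log axis, from the strongest peak at the top. The dashed line marks rank 4410. The ranks of the Chro peak coincide at 7, and the spread between replicates is widest for the Dref peak at rank 2319, where replicate 3 lies at 21853.

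Agreement between replicates followed strength, as it must in part, since the pooled signal was derived from the same 3 replicates. Of the 16 optimal peaks, 12 lay in the 4410 strongest regions of all 3 replicates and 4 in those of 2, where 66.1% of all optimal peaks lay in all 3. Among the 2205 strongest optimal peaks 10 of 11 from these windows were held by all 3, where 96.6% of all such peaks were. Among the weaker ones it was 2 of 5, where 35.6% were. The share was thus near that of all optimal peaks in either range of strength.

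At start sites the 7 called genes had a median signal of 239, with a lowest of 109 and a highest of 1422. All 1953 called protein-coding genes had a median of 165, with a lowest of 87.3 and a highest of 1792. Above that median lay 5 of the 7 genes, and BEAF-32 and pita lay under it. Of the 8 start-site summits of the genes, 5 lay upstream of the nearest start of the gene and 3 downstream. That split was not set beside one over all start-site summits, so it describes these 8 only.

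At Cp190, BEAF-32, M1BP and Dref a summit lay between the outermost start of the gene and a divergent start of its neighbour. The Chro summit and the second BEAF-32 summit lay between an inner start and a divergent start. An opposite start lay within 1 kb upstream of a start in 7 of the 10 genes, where 39.6% of protein-coding genes had one. These 7 were Chro, Cp190, BEAF-32, su(Hw), Trl, M1BP and Dref, and 6 of them were called, where 23.1% of protein-coding genes with such a neighbour were. Of the 3 genes without one only pita was called, where 8.05% of protein-coding genes without one were. For su(Hw) the neighbour was Polr2I, a subunit of RNA polymerase II, at 500 bp, and the interval between them held no optimal summit. For Trl it was Mgat4a, 979 bp from the outermost start. Trl was called from an inner start instead, so its peak was not at the divergent pair. The 5 genes with 2 to 4 starts were all called, where 23.8% of protein-coding genes with that many were, and 2 of the 5 with 1 start were, where 9.96% were. The part of neighbours and of the number of starts in the count of 7 was not tested.

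The 3 uncalled genes were not empty in every list. In replicate 1 a weak region had its summit within 500 bp of each of their starts, at rank 7952 for su(Hw), 12811 for CTCF and 17451 for mod(mdg4). Neither the other replicates nor the pooled list had one there. Among the 11992 uncalled protein-coding genes such a region of any rank was present at 38.8% in replicate 1, 32.9% in replicate 2 and 27.4% in replicate 3. These ranks lie in the part of the lists that the authors deposited as peaks together with background, and they are not calls. Replicate 1 also listed the most regions in the 10 windows, 70, where replicates 2 and 3 listed 47 and 38. Per window that was 7.00, 4.70 and 3.80 regions in replicates 1, 2 and 3, where the mean window of protein-coding genes held 4.31, 4.09 and 3.77.

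A and T were frequent at the summits, as at optimal summits in general. Within 50 bp of the 16 summits the A or T content averaged 66.3% ± 7.36 (SD over 16 summits), against 55.3% in windows centred 300 bp to either side, and it was higher at the summit in 12 of 16. Over all optimal summits it was 66.5% ± 8.96, against 55.0%. At the 8 start-site summits it was 66.6% ± 8.79. The second BEAF-32 summit had the highest content, 81.2%, while the Chro summit had 66.3% against 71.3% in its own flanks. At the Dref start summit the content was 55.4%, the lowest of the 16 together with the CTCF peak at rank 3542, and both summits of CTCF and this one held none of the 5 words. At least 1 of the words was present at 13 of the 16 summits (81.2%), at 70.9% of the optimal summits outside these windows and at 39.7% of the flanking windows of those.

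**Figure D4:**
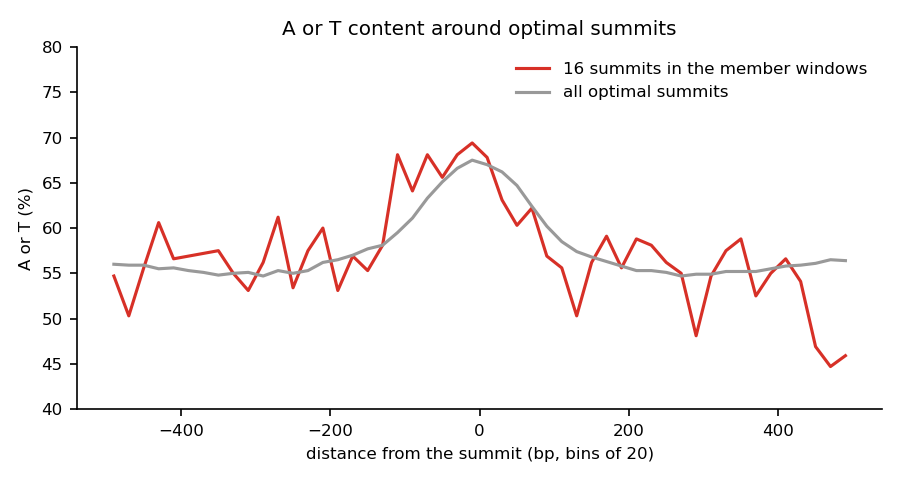
A or T content in bins of 20 bp around the 16 summits in the gene windows and around all 4410 optimal summits. The y axis runs from 40 to 80%, and both lines rise towards the summit, the line of the 16 summits with more scatter.

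The recognition letters of the factors themselves were searched on both strands. In the 300 bp from 250 bp upstream to 50 bp downstream of the 5′ end of each gene, the DRE letters TATCGATA were present in 5 of the 10 genes, Cp190, mod(mdg4), BEAF-32, CTCF and pita, where 9.36% of protein-coding genes had them. Dref was not among the 5. The letters CGATA, bound by BEAF-32 and contained in the DRE letters, were present in those 5 genes and in Dref, where 47.4% of protein-coding genes had them. The Motif 1 core GGTCACAC was present in 1, su(Hw), where 7.70% had it, and the su(Hw) core TGCATA in 2, pita and M1BP, where 15.4% had it. The GAGA letters GAGAG and the CTCF core AGGNGGC were in none of the 10, where 29.7% and 8.30% of protein-coding genes had them.

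The same letters were looked for at the summits. Within 50 bp of the 16 summits the DRE letters, GAGAG, the Motif 1 core and the CTCF core were at 0, where 0.930%, 9.37%, 0.612% and 2.18% of all optimal summits held them. The DRE letters near the 5′ end of Cp190, BEAF-32 and pita lay outside this summit window but inside a start-site peak of the gene. How often these letters lie within the whole width of optimal peaks is not given here, so that overlap is a description of position only. CGATA was at 4 of the 16, the peaks of Chro and Dref at their starts, of pita at its start and of CTCF at rank 3542, where 12.6% of all optimal summits held it. TGCATA was at 1, the mod(mdg4) peak at rank 150, where 8.93% did. A match is a description of the letters and not of a bound site.

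The DRE letters are shown in capitals for 3 of the 5 genes, in a stretch from 75 bp upstream to 25 bp downstream of the 5′ end, on the strand of the gene. Their first base is 4 bp upstream of the start in Cp190, 54 bp in mod(mdg4) and 21 bp in CTCF. Of all 5 genes with these letters, Cp190, BEAF-32 and pita had an optimal summit at a start, and mod(mdg4) and CTCF did not. The share called among all protein-coding genes with these letters is not given here, so no link between letters and peaks can be read from the 5.
Cp190 (chr3R:15275216-15275316, minus strand): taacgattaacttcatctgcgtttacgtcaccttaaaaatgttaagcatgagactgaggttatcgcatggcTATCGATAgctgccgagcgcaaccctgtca
mod(mdg4) (chr3R:21377376-21377476, minus strand): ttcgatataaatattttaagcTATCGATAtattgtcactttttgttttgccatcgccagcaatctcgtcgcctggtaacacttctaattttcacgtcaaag
CTCF (chr3L:7356688-7356788, minus strand): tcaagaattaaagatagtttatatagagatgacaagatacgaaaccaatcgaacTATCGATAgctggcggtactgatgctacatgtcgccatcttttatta

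Genes of other insulator, cohesin and promoter chromatin proteins were read in the same way. Of 31 related genes 7 (22.6%) had a start-site summit in the optimal list, where 14.0% of protein-coding genes did. In the gene body or within 5 kb it was 14 of 31, where 40.8% did. The GAGA partner and BTB genes psq, lolal and lola were called in 3 of 3 cases, and each has 4 or 5 starts. Among promoter and housekeeping chromatin genes 3 of 9 were called (pzg, row and woc), and among partners of insulator proteins 1 of 6, shep. None of 8 further insulator protein genes was called (dwg, ZIPIC, Ibf1, Ibf2, Elba1, Elba2, Elba3 and insv), nor any of 5 cohesin genes (vtd, SA1, SMC1, SMC3 and Nipped-B).

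The strongest of the 7 was at lola, a BTB zinc finger gene of axon guidance, at chr2R:10542109-10542237 with a signal of 394, rank 327 and replicate ranks of 814, 324 and 143. The peak of shep, an RNA-binding protein that tempers insulators in neurons, had a signal of 307 and replicate ranks of 318, 665 and 821. Those of row and woc, whose zinc finger products act together with the chromatin protein HP1c, had signals of 240.0 and 229. The signals at lolal, psq and pzg were 190, 157 and 97.0. The pzg peak was among the 4410 strongest regions of 1 replicate only, and the other 6 of all 3. The product of pzg is found with Chromator and with DREF, and its peak was nearer to the start of CG12974.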

How the data were processed

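Per the labels, chromatin of CG8319-GFP prepupae was sheared by sonication to 200 to 800 bp, and 3 biological replicates were made. The deposited lists have 10 columns, and the signal value of a region, from the authors' peak caller, is column 7. Per the deposited text notes, each replicate list was called from 1 alignment with a control, the pooled list from the 3 alignments with a control, and the optimal list was derived from those 4 by IDR. Which aligner, caller and IDR threshold were used is not given in the sources read here. The replicate and pooled lists hold 30000 regions each, background included, and the optimal list 4410. In the optimal list 78.5% of peaks have the width of 410 bp. Of the 16 peaks described, 7 have that width. Lists in the older build dm3 were not used here.

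Genes and starts came from Ensembl release 115 (assembly BDGP6, dm6 coordinates, 6 chromosome arms, transposable elements left out), 18164 genes and 23998 starts. Bases were read from RefSeq's FASTA of Release 6, after its arm lengths were checked against the annotation and lists. A gene was called from an optimal summit at most 500 bp from any of its starts. Replicate regions were matched to an optimal peak by 1 bp of overlap, taking the strongest. For words and motifs both strands were searched. The replicates are separate samples of 1 line, and SDs over replicates cover the spread between these samples only. The 10 genes, the 31 related genes (SA read as SA1), the motifs and the rules were chosen with earlier results of these data known, so no test was run over them. All 10 genes are named, and of the related genes those called. Calculations used Python 3.11.15, numpy 2.4.6 and pandas 2.3.3, and the code was checked on planted summits and words.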

Additional observations from a re-analysis of the deposited data

How the results depend on the processing

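No paired analysis was possible because the samples form 1 group. In 36 alternatives over 6 results, every count stayed within 1.5 times the reported one, and the A or T content moved by less than its SD over summits. The limit of 1.5 times is wide, and counts out of the 10 genes could not have risen past it. Of the 10 genes, 6 to 7 were called at a start when each replicate was left out of the overlap rule in turn. Optimal peaks then had to overlap the 4410 strongest regions of each remaining replicate. The optimal list itself, derived from all 3 replicates, was not made again. When only the 5′ end of the gene counted as its start 6 genes were called, which loses Trl. Genes with a summit in the body or flanks ranged from 8 to 9 over the flank widths and list choices. The 16 summits were 13 with a 2 kb flank, 23 with 10 kb, 11 in the 2205 strongest peaks, and 12 to 14 by that overlap rule without 1 replicate. Summits held by all 3 replicates ranged from 9, with 2205 regions per replicate, to 16, with whole lists. The A or T content at start-site summits ranged from 64.0 to 65.9%, and related genes called from 5 to 9. Unknown read depth limits what a missing peak means, and a gene without one may hold the protein below the threshold.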

Other observations

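Beyond the 5 kb flanks, out to 10 kb, lay 7 further optimal summits, most of them at starts of neighbouring genes. For Dref these were at the starts of CG4709, 20 bp away with a signal of 296, and of CG5846, 34 bp away with a signal of 240. For Cp190 a pair of peaks lay 345 and 121 bp from starts of Tm1, a tropomyosin gene, with signals of 150 and 98.2. For Chro the summits lay 228 bp from a start of CG33170 and 95 bp from one of CG33169, with signals of 127 and 144.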
